A study of Caenorhabditis elegans with 2 samples.

Results

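The strongest ChIP-seq regions at mdt-26, tasp-1 and wwp-1 are described here, 3 of the 1032 regions in the optimal list of the tagged Caenorhabditis elegans protein F52B5.7. Each is the only optimal region that overlaps its gene or the 1000 bp on either side of it. The genes were chosen by the signal of these regions, which is among the highest of the list, so the signals and ranks below are a description and carry no test. The 3 genes are among 19973 protein-coding genes, of which 1362 (6.82%) had an optimal region in or within 1000 bp. All 3 were inside that count by the way they were chosen.

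The animals were whole young adults of strain OP606, of mixed sex, collected 63 h after synchronization as starved L1 larvae. The strain is unc-119(tm4063) III with the integrated transgene wgIs606, which makes F52B5.7 with a C-terminal GFP-FLAG tag. Chromatin was sheared by sonication and precipitated with an antibody against GFP. There were 2 biological replicates and 1 group, so both replicates carry the same allele and transgene. The promoter that drives the transgene and the cells that make the protein are not given in the labels. All cells of the animal were pooled, so a weaker signal in many cells and a stronger signal in few cells cannot be told apart. The control experiment named in the labels was not analysed here, and neither was an animal without the tag.

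Mediator is a large complex that carries signals from DNA-bound transcription factors to RNA polymerase II, and mdt-26 encodes one of its subunits. The gene tasp-1 encodes a threonine aspartase. Its fly and mammalian counterpart, taspase 1, cuts MLL-type histone methyltransferases and the large precursor of the general transcription factor TFIIA. The protein WWP-1 is an E3 ubiquitin ligase with WW domains and a HECT domain, the catalytic fold that takes ubiquitin from an E2 enzyme before passing it to a target. In the worm, WWP-1 is needed for the longer life of animals on a restricted diet.

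The summits of mdt-26 and tasp-1, each with 50 bases on either side, are shown because each holds both words that the windows of the 3 genes have in common. They are plus-strand RefSeq sequence of WBcel235, the assembly also called ce11, at chrII:5661732-5661832 and chrIII:10759195-10759295, with the summit in the middle. Capitals mark AACACG and AGCGCG on either strand. They are the only words of 6 bases found in the windows of all 3 genes.
mdt-26: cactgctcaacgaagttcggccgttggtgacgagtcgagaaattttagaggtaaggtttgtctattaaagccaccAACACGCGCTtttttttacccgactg
tasp-1: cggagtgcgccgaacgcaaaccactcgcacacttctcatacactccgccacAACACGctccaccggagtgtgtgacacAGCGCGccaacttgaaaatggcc
In the mdt-26 window the words overlap. There AACACG, on the plus strand, starts 25 bases to the right of the summit as printed, and AGCGCG, on the minus strand, covers the bases from 29 to 34 to the right of it. In the tasp-1 window both lie on the plus strand, beginning 1 and 28 bases after the summit. The middle base of the mdt-26 window is also the first base of an intron, the g of gtaagg.

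At mdt-26 the strongest region lay inside the gene. The gene (WBGene00016115) occupies bases 5661181 to 5665243 of chromosome II on the plus strand. The optimal region ran from base 5661555 to 5662106 with its summit at 5661782, in the intron that follows exon 2 of the coding transcript. That exon ends at 5661781 and the next begins at 5662168, so the summit was the first base of a 386 bp intron. It lay 601 bp downstream of the coding transcript's start and 588 bp downstream of the start shared by 2 other annotated transcripts, both classed as ncRNA. The region therefore did not have its summit at an annotated promoter of the gene.

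The signal of the mdt-26 region, the authors' value per region with no stated unit, was 629.9 in the pooled and optimal lists, rank 3. It was 337.2 in replicate 1, rank 4, and 319.5 in replicate 2, rank 5. The replicates' summits lay 40 bp apart, with replicate 1 at 40 bp past the end of exon 2 and replicate 2 on the last base of that exon. Replicate 1's region was 445 bp wide and replicate 2's 458 bp, and 414 bp were shared, which was 93.0% of the region in replicate 1 and 90.4% in replicate 2. Both replicates thus placed the region over the same exon and intron boundary.

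A much weaker region lay at the start of mdt-26. In the pooled list it was 98 bp wide, from 5661173 to 5661270, with a signal of 103.6 and rank 1407, too low for the optimal list. Replicate 1 had a region there from 5661020 to 5661379, with a signal of 90.15 and rank 325. Replicate 2 had none over the start, and its nearest upstream region ran from 5660311 to 5660734 with a signal of 45.88. The start-site signal of mdt-26 was thus listed in 1 of the 2 replicates, whereas the intronic region was among the strongest of both.

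The intronic region was also unusually wide. Its 552 bp made it wider than 99.0% of the optimal regions, and 9 were wider. In the pooled list the same interval appeared a second time, with a summit at 5661983 and a signal of 87.68, rank 2404. Replicate 2 listed a second summit at the same base, with a signal of 24.05, while replicate 1 did not. The other gene within 1000 bp of the summit was ift-43, whose start was 996 bp away on the opposite side of the mdt-26 start.

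At tasp-1 the strongest region lay over the promoter. The gene (WBGene00010480) occupies bases 10759307 to 10763021 of chromosome III on the plus strand. The optimal region ran from 10759107 to 10759405, and its summit at 10759245 was intergenic, 62 bp upstream of the nearest annotated start. The starts of the other 2 annotated transcripts were 140 and 424 bp downstream of the summit, and RefSeq gives the one at 140 bp. Of the 3 regions it had the summit closest to an annotated start of a protein-coding gene.

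The tasp-1 signal was 567.2 in the pooled and optimal lists, rank 8. It was 330.9 in replicate 1, rank 6, and 247.7 in replicate 2, rank 10. The summits lay 26 bp apart, at 10759263 in replicate 1 and 10759237 in replicate 2. The 2 regions were 259 and 256 bp wide and shared 255 bp, 98.5% and 99.6% of their lengths. The only other gene with a start nearby was K01G5.10 on the minus strand, whose start was 723 bp from the summit.

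At wwp-1 the strongest region also lay upstream of the gene. The gene (WBGene00007009) occupies bases 537122 to 542204 of chromosome I on the plus strand. The optimal region ran from 536707 to 536999, and its summit at 536874 was 248 bp upstream of the first start and 2636 bp upstream of an internal start. The summit was outside protein-coding genes but inside Y65B4BR.10, a 128 bp gene on the minus strand that Ensembl classes as ncRNA. That gene runs from 536804 to 536931, and its start was 57 bp from the summit. The 3′ end of icd-2 was 287 bp away.

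The wwp-1 signal was 429.7 in the pooled and optimal lists, rank 12. It was 222.9 in replicate 1, rank 12, and 199.9 in replicate 2, rank 16. The summits lay 25 bp apart, and the regions of 243 and 216 bp shared 210 bp, 86.4% and 97.2% of their lengths. A second optimal region had its summit 1426 bp further upstream, at 535448, with a signal of 133.8 and rank 671. That region was outside the 1000 bp margin, so it is not counted among the regions of wwp-1.

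**Figure D1:**
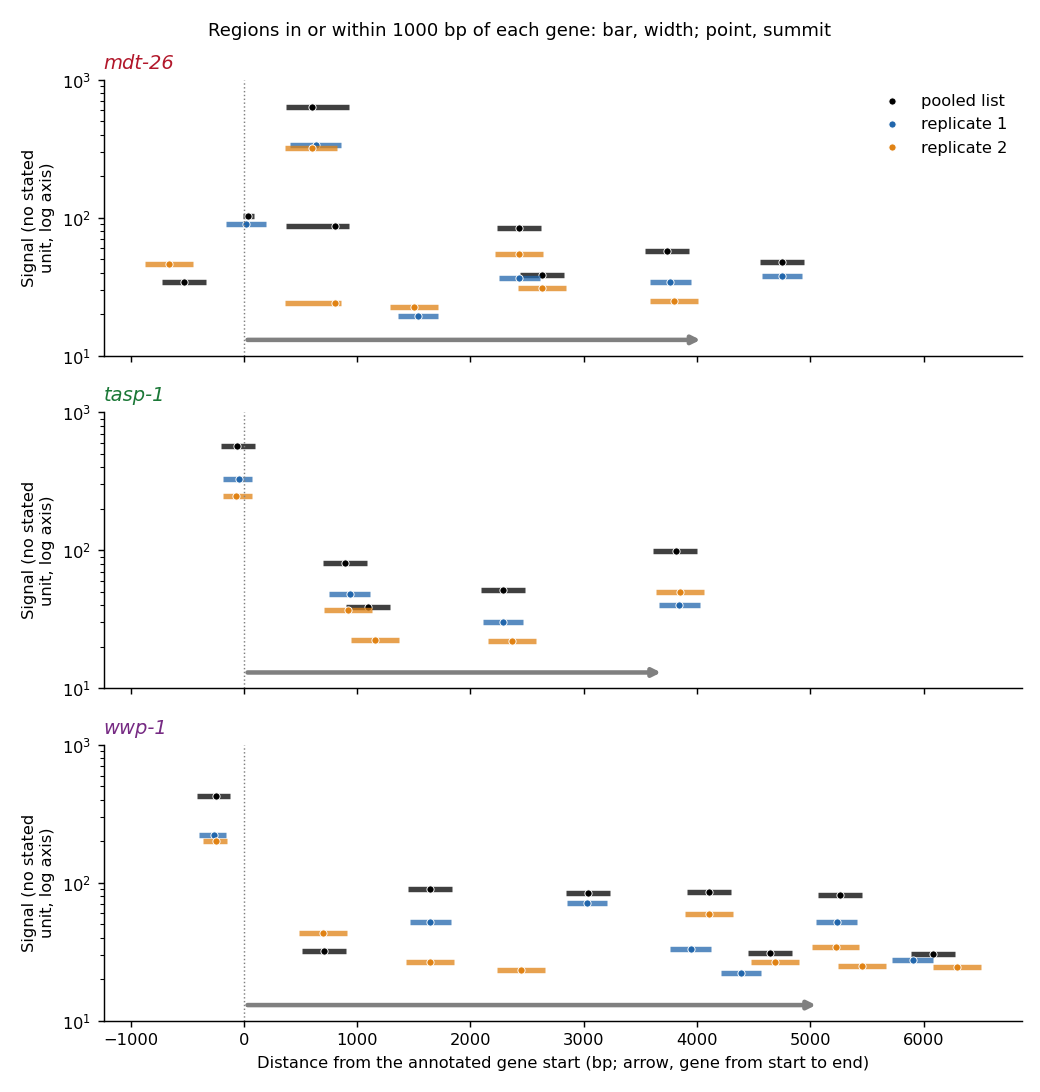
Signal of every region in or within 1000 bp of mdt-26, tasp-1 and wwp-1 (log axis, the authors' unit-less value) against distance from the annotated gene start in bp, for the pooled list and each replicate. Bars show region widths, points show summits and the grey arrow shows the gene. In each panel 1 place stands above all others in the pooled list and in both replicates, downstream of the start in mdt-26 and upstream of it in tasp-1 and wwp-1.

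The candidate lists of 30000 regions held further, weaker regions at all 3 genes. Within the same margin the pooled list had 8 regions at mdt-26, 5 at tasp-1 and 8 at wwp-1. Replicate 1 had 6, 4 and 7, and replicate 2 had 7, 5 and 9. Besides the strongest, the pooled signals ran from 34.12 to 103.6 at mdt-26, from 38.71 to 99.06 at tasp-1 and from 30.74 to 90.39 at wwp-1. All of these were below 114.6, the lowest signal of the optimal list, whose regions are the 1032 strongest of the pooled list. The pooled list is labelled as peaks and background, so a weak region in it need not be a binding site. The lowest −log10 q values of the pooled regions were 0.264 at mdt-26, 0.331 at tasp-1 and 0.221 at wwp-1. Region counts for genes in general are not given here.

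Each of the 3 regions stood well above its surroundings, which largely follows from choosing the genes by signal. Among pooled regions with a summit within 10 kb on either side, the mdt-26 region had 6.08 times the signal of the next strongest, which was the one at its own start. The ratio was 5.73 for tasp-1, whose next strongest region lay 3872 bp downstream near the end of the gene, and 3.21 for wwp-1. In replicate 1 the ratios were 3.74, 6.91 and 3.14 for mdt-26, tasp-1 and wwp-1, and in replicate 2 they were 5.87, 4.99 and 3.37. Against the median of the other pooled regions within 10 kb, the members had 14.9, 11.0 and 11.3 times the signal, in the same order of genes.

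The signals of different lists are on different scales, so each was divided by a median. In the optimal list this was the median of the list, 146.8, and in each replicate it was the median of as many of its strongest regions, 78.92 in replicate 1 and 78.59 in replicate 2. The mdt-26 region was at 4.27 times the median in replicate 1 and 4.07 times in replicate 2, with a mean of 4.17 ± 0.147 (SD, n = 2). The tasp-1 region was at 4.19 and 3.15 times, with a mean of 3.67 ± 0.736 (SD, n = 2). The wwp-1 region was at 2.82 and 2.54 times, with a mean of 2.68 ± 0.198 (SD, n = 2). The mdt-26 value was above the tasp-1 value in each replicate, while the ranges of the 2 genes over both replicates overlapped. Both values of wwp-1 lay below both values of either other gene. With 2 replicates, and genes chosen by signal, no test of this order was made.

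Replicate 1 was higher than replicate 2 at all 3 genes on this scale. The ratio of replicate 1 to replicate 2 was 1.05 at mdt-26, 1.33 at tasp-1 and 1.11 at wwp-1. Over the 998 optimal regions with a region in both replicates, the median ratio was 1.04, and the 10th and 90th percentiles were 0.632 and 1.7. Among the 25 strongest it ran from 0.652 to 1.4, with a median of 1.11. The 3 ratios were therefore inside the range of the list. All 3 regions were among the 1032 strongest of both replicates, as were 502 (48.6%) of the optimal regions, a count that follows from choosing the genes by signal.

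**Figure D2:**
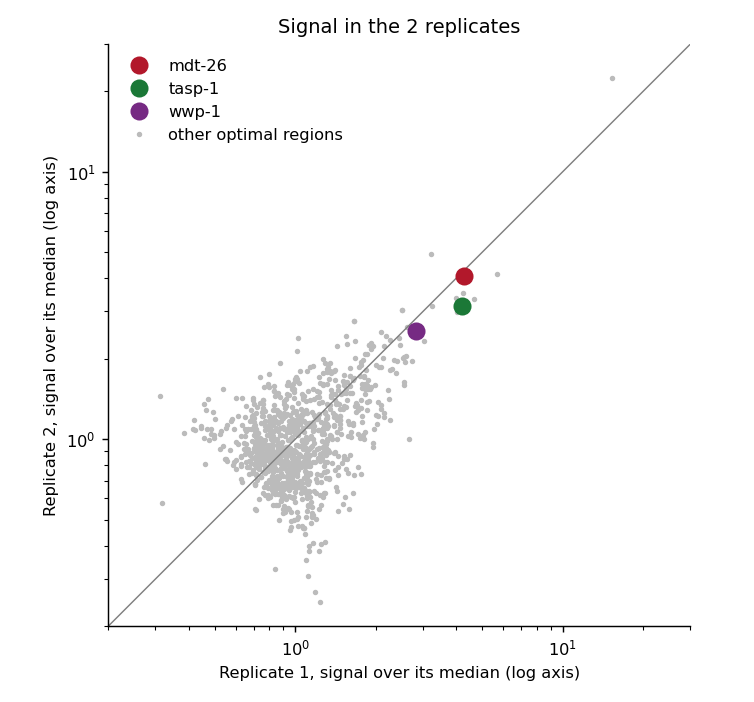
Signal of optimal regions in replicate 1 (horizontal) and replicate 2 (vertical), each divided by the median of that replicate's 1032 strongest regions, on log axes, with a line where both are equal. The regions of mdt-26, tasp-1 and wwp-1 lie just below the line and at the upper end of the 998 regions found in both replicates.

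The summits of the replicates were 40, 26 and 25 bp apart at mdt-26, tasp-1 and wwp-1. The median gap was 36 bp over all 998 regions, with 4 and 112 bp as the 10th and 90th percentiles, and 17 bp among the 25 strongest. The −log10 q value could not rank the members, because all 3 were at the ceiling of their list. That ceiling was 2.98 in the optimal list, where 476 regions shared it, 3.09 in replicate 1 and 3.11 in replicate 2. The ce10 version of the optimal list, with 992 regions, held each of the 3 with the same signal and at the same rank.

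The regions next in rank show how finely the order was spaced. Just above mdt-26 was a region in an intron of pxn-1 beside the snoRNA gene ZK994.7, with a signal of 776.9, and just below it one in an intron of cutl-18 beside the snoRNA gene T03F7.8, with 628.9. The tasp-1 region lay between 587.7, beside the snoRNA gene W03C9.9, and 510.8, in coding sequence of dos-3. The wwp-1 region lay between 440.9, in coding sequence of suro-1, and 416.8, beside the snoRNA gene Y23H5B.10. The order of mdt-26 and its lower neighbour turned between the replicates, in which mdt-26 ranked 4 and 5 and the cutl-18 region 3 and 8. The strongest region of all, inside snpc-4 and named after its value was seen, was at 2954.

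**Figure D3:**
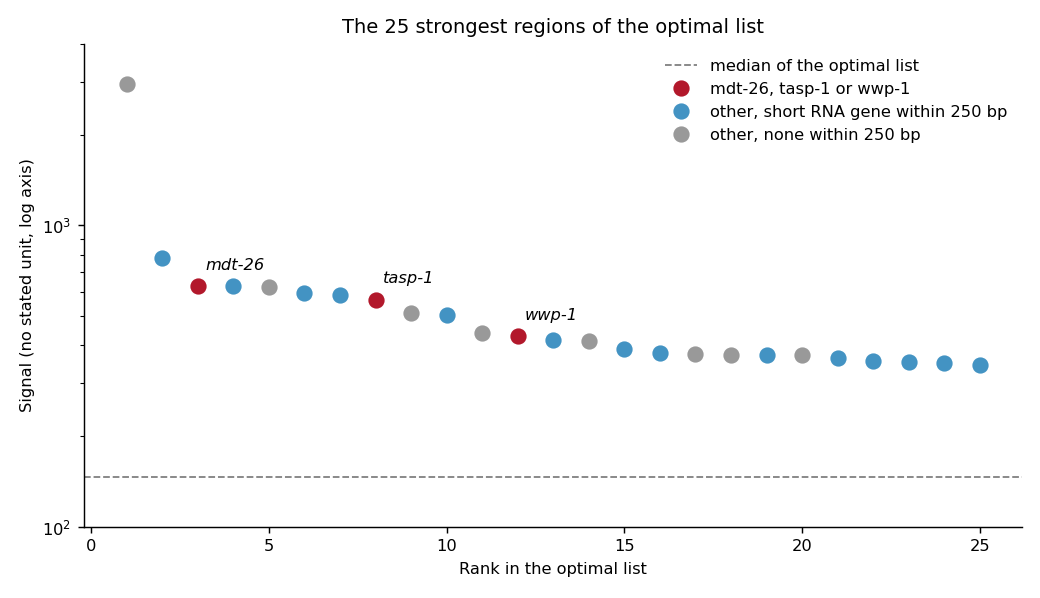
Signal (log axis, no stated unit) of the 25 strongest optimal regions by rank, with the regions of mdt-26, tasp-1 and wwp-1 in red, other regions within 250 bp of a short noncoding RNA gene in blue and the remaining ones in grey. The dashed line is the median of the optimal list, 146.8. The red points are at ranks 3, 8 and 12, and the wwp-1 point also has a short gene within 250 bp, classed as ncRNA.

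Short noncoding RNA genes lay close to 1 of the 3 summits. No tRNA, snoRNA, snRNA or miRNA gene of at most 300 bp lay within 250 bp of any of the 3 summits (0 of 3), against 12 of the 25 strongest and 255 of the 1032 optimal regions (24.7%, exact 95% binomial interval 22.1 to 27.5). With 3 regions this was not tested. Of the 25 strongest, 13 had none, the 3 members included. For short noncoding RNA genes of any class the counts were 1 of 3 for the members, 15 of 25, and 353 of 1032 (34.2%, exact 95% binomial interval 31.3 to 37.2). The 1 was wwp-1, whose summit lay inside Y65B4BR.10, and the members' share was close to that of the list. In the other 28968 regions of the pooled list the shares were 1.9% for the first group of genes and 7.54% for any class.

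The nearest short RNA genes were far from mdt-26 and tasp-1. From the mdt-26 summit the closest was the ncRNA gene F59E12.14 at 12090 bp, and the closest snoRNA gene was C18A3.12 at 39880 bp. From the tasp-1 summit the closest was the ncRNA gene K01G5.11 at 11075 bp, and the closest snoRNA gene was K11D9.10 at 62436 bp. The gene wwp-1 itself contains the 157 bp snoRNA gene Y65B4BR.12, in an intron and 2212 bp from the summit. None of the 4 lists had a summit within 250 bp of that snoRNA gene, and the nearest pooled summit was 318 bp away with a signal of 90.39, rank 2187. The strong wwp-1 region was thus not at the snoRNA gene.

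Among the 777 optimal regions with no tRNA, snoRNA, snRNA or miRNA gene within 250 bp, mdt-26 ranked 2, tasp-1 ranked 4 and wwp-1 ranked 8. Among the 590 with a protein-coding start within 1000 bp, they ranked 2, 4 and 6. By its optimal summit, 1 bp past the end of exon 2, the mdt-26 region was the second strongest of 238 intronic regions. Intronic regions were 23.1% of the optimal list. The summit in replicate 2 was on the last base of that exon, so the intronic class rests on 1 bp. The mdt-26 region was also the strongest of 170 on its chromosome. The tasp-1 and wwp-1 regions ranked 3 and 4 of 489 intergenic regions, which were 47.4% of the list. Intergenic here means outside protein-coding genes, so summits inside noncoding RNA genes are included, that of wwp-1 among them. On their own chromosomes the tasp-1 and wwp-1 regions ranked 2 of 191 and 4 of 178.

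The tasp-1 and wwp-1 regions were narrow, at 299 and 293 bp. In the optimal list 833 regions (80.7%) had exactly the same width of 390 bp, which none of the 25 strongest had. The widths of those 25 ran from 155 to 684 bp with a median of 299 bp. The tasp-1 and wwp-1 widths were thus typical of the strongest regions, and that of mdt-26 was toward their upper end.

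The windows of 50 bases on either side of the summits differed in base composition. The GC content was 46.5% at mdt-26, 59.4% at tasp-1 and 54.5% at wwp-1. The median over the optimal list was 49.5%, with 37.6% and 59.4% as the 10th and 90th percentiles, and it was 44.6% over the other pooled regions. Of the optimal windows, 34.4% had a lower GC content than that of mdt-26 and 88.5% a lower one than that of tasp-1. The 3 members thus had no common base composition.

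Of 2080 distinct words of 6 bases, counting a word and its reverse complement as one, AACACG and AGCGCG were in all 3 windows, and no longer word was. In the wwp-1 window both lie on the plus strand and upstream of the summit, beginning 28 and 42 bases before it. These words were found by comparing the members' own windows, so the 3 of 3 is no evidence about them. In the other 1029 optimal windows AACACG was in 61 (5.93%, exact 95% binomial interval 4.56 to 7.55) and AGCGCG in 84 (8.16%, 6.56 to 10.0). In the other 28968 pooled windows the shares were 3.97% and 2.31%.

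Both words together were rare outside the members, but the pair was taken from the members' own windows, so this rarity is no evidence about them. They were in 6 of the other 1029 optimal windows (0.583%, exact 95% binomial interval 0.214 to 1.26) and in 34 of the 28968 other pooled windows (0.117%). Of those 6 optimal windows, 2 were among the 25 strongest, and both lay upstream of genes for large ribosomal subunit proteins. These genes were named after the values were seen. One region was 282 bp upstream of rpl-3, with a signal of 624.5 and rank 5, and the other 448 bp upstream of rpl-35, with 371.7 and rank 18. Among the 22 strongest windows besides the members, AACACG was in 6 and AGCGCG in 3. A match of letters is a description of the window and does not show where the protein sits.

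Promoter words of RNA polymerase II and III genes, and words common in the optimal list, were searched in the 3 windows. Each of them is in so few optimal windows that a count of 0 of 3 says nothing about the members. The search took 7 words on both strands. Of these, 4 were words known from earlier results of these data. Of the 7, ACCACT, once in the tasp-1 window, was the only one found in any member, and it was in 11.9% of the optimal windows and 4.49% of the other pooled windows. The core of the B box, a promoter element inside tRNA genes, is written GTTCGA and was in none of the 3 members but in 12.6% of the optimal windows. Its longer form GTTCGANNC, which contains the core, was in none of the 3 and in 9.21% of the optimal windows. The TATA box word TATAAA was in none of the 3 and in 5.62% of the optimal windows. The remaining words were also in none of the 3, where ACGCAG was in 10.5% of the optimal windows, AGAGCG in 11.0% and GAACCC in 8.43%.

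Genes related to the members were examined in lists by family. Of 38 Mediator subunit symbols, alternative names included, 29 matched a gene model, and 6 of the 29 (20.7%) had an optimal region in or within 1000 bp, against 6.82% of all protein-coding genes. The count was 3 without replicate 2 and 5 without replicate 1, so it rests partly on 1 library. Without mdt-26, which was chosen for its signal, the count was 5 of 28. None of these 5 regions was close in signal to that of mdt-26. The strongest, at mdt-4, had a signal of 251.1 and rank 90, was nearest to the start of ZK546.19 and lay within 250 bp of a small RNA gene. The region in coding sequence of mdt-17 had 165.2, the one upstream of mdt-8 had 163.8, the one at mdt-22 had 137.3 and the one in coding sequence of mdt-15 had 117.9. The mdt-8, mdt-22 and mdt-15 regions were each nearer to the start of another gene. The best region at mdt-22 ranked 1158 in replicate 1 and 1131 in replicate 2, outside the 1032 strongest of both.

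In the pooled list, 25 of the 28 other Mediator genes had a region, and their best signals ran from 33.48 to 251.1 with a median of 58.9. The share of all protein-coding genes with a region in this list of 30000 is not given here. The 25 of 28 therefore says nothing particular about Mediator genes. The signal of 629.9 at mdt-26 was above all of these. No test was made of the list, since mdt-26 was picked for its signal.

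Of 9 HECT ubiquitin ligase genes, 3 had an optimal region in or within 1000 bp, against 6.82% of all protein-coding genes. Inside the gene itself 1 of the 9 had a region, beside 759 of all 19973 protein-coding genes. Besides wwp-1, the genes with a region in or within 1000 bp were eel-1 and hecw-1. The stronger of 2 eel-1 regions had a signal of 221.2 and rank 146, at 526 bp upstream of the gene's start. The hecw-1 region had 116.3 and rank 998, in an intron and nearer to the start of elmd-1. It lay within 250 bp of a small RNA gene. Without wwp-1, which was chosen for its signal, the count was 2 of 8. With wwp-1 kept, the count was 2 without replicate 1 and 3 without replicate 2, but those 3 did not include hecw-1. The best region at hecw-1 ranked 2409 in replicate 1 and 1134 in replicate 2, outside the 1032 strongest of both. In replicate 1 its place was taken by herc-1, at rank 471, which had no optimal region. The pooled best signals of the 8 others ran from 57.35 to 221.2 with a median of 88.4.

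Genes for TFIIA subunits and MLL/SET1-type histone methyltransferases were 4 in number among the gene models. Of these, 1 had an optimal region in or within 1000 bp, against 6.82% of all protein-coding genes. Whether the worm protein cuts the products of these 4 genes is not known from these data. The count was 2 when either replicate was left out, but the 2 genes were not the same each time. Inside the genes themselves it was 0, beside 759 of all 19973 protein-coding genes. The 1 with an optimal region in or within 1000 bp was set-16, an MLL-type histone methyltransferase gene. Its region had a signal of 205.8 and rank 191, nearer to the start of drr-2. The set-2 methyltransferase gene had a best pooled signal of 101.6. The TFIIA subunit genes pqn-51 and gtf-2A2 had 78.73 and 56.59. Besides set-16, replicate 1 alone counted pqn-51, which ranked 919 there and 2771 in replicate 2. Replicate 2 alone counted set-2, which ranked 558 there and 7372 in replicate 1. The tasp-1 signal of 567.2 was above all 4.

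**Figure D4:**
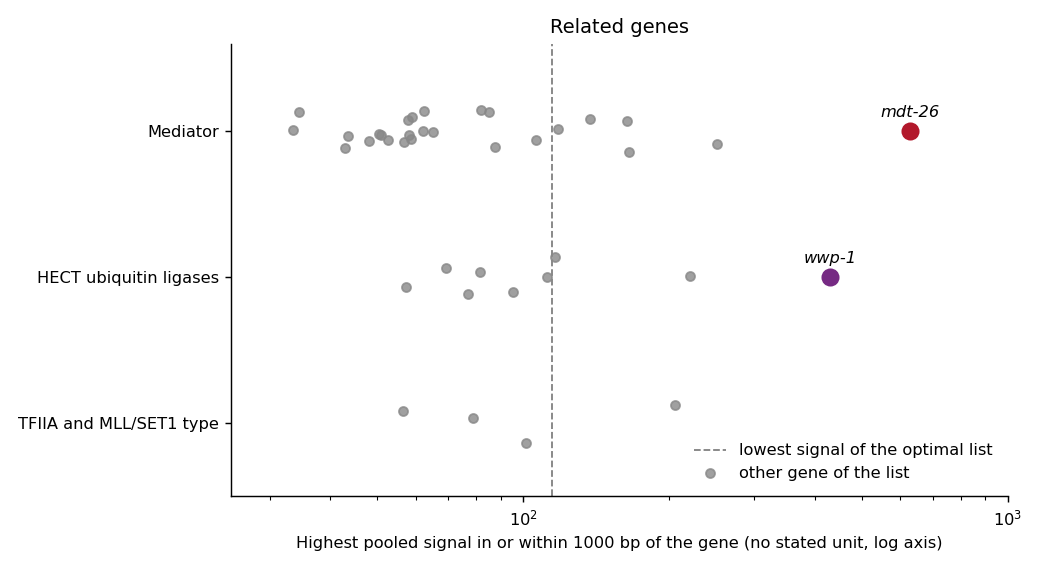
Highest pooled signal (log axis, no stated unit) in or within 1000 bp of each gene with a pooled region, for Mediator subunits, HECT ubiquitin ligases, and TFIIA and MLL/SET1-type genes. The dashed line is the lowest signal of the optimal list, 114.6. The red point of mdt-26 at 629.9 and the purple point of wwp-1 at 429.7 lie to the right of every other gene of their lists.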

How the data were processed

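ChIP-seq for GFP-tagged F52B5.7 was made from 2 biological replicates of whole young adults. Per the labels' file manifests, the authors called candidate regions per replicate and on pooled replicates against a control, and kept an optimal list by the irreproducible discovery rate (IDR), which compares ranks between lists. No aligner, caller, version or IDR cut-off could be named, since each is not given in the sources used here, and no such step is assumed. The signal value of each region is the authors', as deposited, with no stated scale, and served for ranks and descriptions inside 1 list. Between the replicates, only signals divided by a median of the same list were set side by side. The −log10 q value per region is also as deposited by the authors and ranked nothing. Read depth is unknown from these lists, so no counting error could be given for a signal.

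Regions on ce11 were placed on Ensembl release 115 models and RefSeq sequence of the same assembly. All 4 ce11 lists ended within its chromosome lengths. No coordinates were converted, and ce10 regions were matched by width, summit offset and signal within 0.1%. A region belonged to a gene when it overlapped the gene or 1000 bp around it. A short noncoding RNA gene was at most 300 bp long and within 250 bp of a summit. Shares carry exact binomial 95% intervals (Clopper-Pearson), which cover counting error only. Python 3.11.15, pandas 2.3.3, NumPy 2.4.6, SciPy 1.17.1 and matplotlib 3.10.9 were used, and the overlap steps were tested on simulated regions.

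The members and lists were chosen with earlier results of these data known. Named genes were the members, genes within 1000 bp of their summits, the regions 1 rank above and below each, and genes of the fixed family lists with an optimal region. The 3 other TFIIA and MLL/SET1-type genes, herc-1, rpl-3, rpl-35 and snpc-4 were named after their values were seen. One fixed list is not reported here. No test was made. Alternatives were other windows, the stronger regions alone, the ce10 list and each replicate alone. The control experiment was not analysed here.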

Additional observations from a re-analysis of the deposited data

How the results depend on the processing

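Of 90 alternative values, 70 stayed within the spread between replicates or within 1.5 times a count, 20 moved and 0 reversed direction. For ranks and multiples with 1 replicate left out, that spread came from the same 2 replicate values. Staying within it is therefore no independent check of those values. With each replicate left out in turn, the rank of mdt-26 ran from 4 to 5, that of tasp-1 from 6 to 10 and that of wwp-1 from 12 to 16. The signal over the median ran from 4.07 to 4.27, from 3.15 to 4.19 and from 2.54 to 2.82 for the 3 genes in that order. Mediator genes with a region ran from 3 to 5. TFIIA and MLL/SET1-type genes numbered 2 in both cases, but only set-16 was in both. Over the 516 strongest optimal regions the multiples were 3.42, 3.08 and 2.33, and 714 genes had a region, because the median rose and the list was shorter. With 0 bp around the gene, 759 genes had a region, as did 1 HECT gene and 0 TFIIA and MLL/SET1-type genes, because the window was smaller. The wwp-1 region itself lies outside the gene, so wwp-1 had 0 optimal regions at 0 bp and 2 at 2000 bp. No paired analysis was possible because both replicates belong to 1 group, so there are no groups to pair. The unknown depth and scale of the signal limit comparisons to ranks within 1 list and to signals divided by a median of their own list.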
